A study of Mus musculus with 4 samples.

Results

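The mouse iPS cell line iPS-OSH was compared with embryonic stem cells (ESC), each measured on 1 of the 4 Agilent expression arrays of the study, which use 1 dye. The other arrays held a second iPS line, iPS-J, and mouse embryonic fibroblasts (MEF), whose levels are given beside the comparison. iPS-OSH, iPS-J and MEF had the genetic background C57BL/6, and ESC had 129SV, so strain and cell line cannot be told apart in any difference from ESC. The 3 pluripotent lines were grown in DMEM with 15% serum, 2-mercaptoethanol and the cytokine LIF, and MEF in DMEM with 10% serum. The labels give neither the factors used to reprogram iPS-OSH nor its passage, and no feeder layer is named. The members of the comparison were the probes with a usable spot on both arrays, 55405 of 55681, which stood for 35342 of 35440 genes. Of these, 30714 genes stood well above background in iPS-OSH, ESC or both and were compared, each by its brightest probe. With 1 array per group no difference has a replicate check, no p-value is given, and genes are called higher or lower by a 2-fold difference in size alone.

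Pluripotent cells can form all tissues of the embryo and are held in that state by a network of transcription factors around Pou5f1 (also called Oct4), Sox2 and Nanog. LIF keeps mouse embryonic stem cells undifferentiated through the kinase JAK and the transcription factor STAT3. iPS cells are somatic cells brought back to such a state by added factors, and fibroblasts are connective tissue cells that make collagens and other matrix proteins. A culture of pluripotent cells can also hold differentiated cells, cells left incompletely reprogrammed, or fibroblasts used as feeders. In bulk RNA, fewer cells of a type and less RNA per cell cannot be told apart.

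The arrays shared 1 slide, but the file headers give different scan date entries for iPS-OSH and ESC. These entries are numbered here as scan sessions, 2 for iPS-OSH and 3 for ESC, so scan session and line cannot be told apart either. Signals are given scaled so that the 75th percentile of each array is 1000, and log2 differences are iPS-OSH minus ESC. That percentile was 1553 on the iPS-OSH array and 1281 on the ESC array before scaling, and 78.2% and 78.4% of spots were well above background. Spots of the same probe differed by a log2 SD of 0.08 and 0.16, which gives a difference a technical SD of 0.18. This SD covers repeated spots within an array only. It leaves out labelling, hybridisation, scan session and the spread between cultures. Dim probes read lower on the iPS-OSH array as a class. Among the 15357 dimmer genes by their mean over the 4 arrays, 45.4% were at least 2-fold lower and 5.97% higher, with a median log2 difference of -0.88. Among the 15357 brighter genes the counts were balanced, with 10.9% lower, 11.2% higher and a median of 0.02. In 8 bins of rising brightness the median went from -1.06 in the dimmest to 0.15 in the seventh and 0.05 in the brightest. Agilent's spike-in RNA, added to every sample in set amounts, also read lower at the dim end: after scaling, its dimmest probe differed by -1.22, the next 2 by -0.66 and -0.66, and the brightest by -0.12. Olfactory receptor genes, which encode odorant receptors of nasal neurons, gave 438 lower and 7 higher of 633, and 599 of them were among the dimmer genes. The share of the spike-in pattern in the lower calls of dim genes was not tested, and lists made mostly of dim genes are read against the 45.4%.

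**Figure D1:**
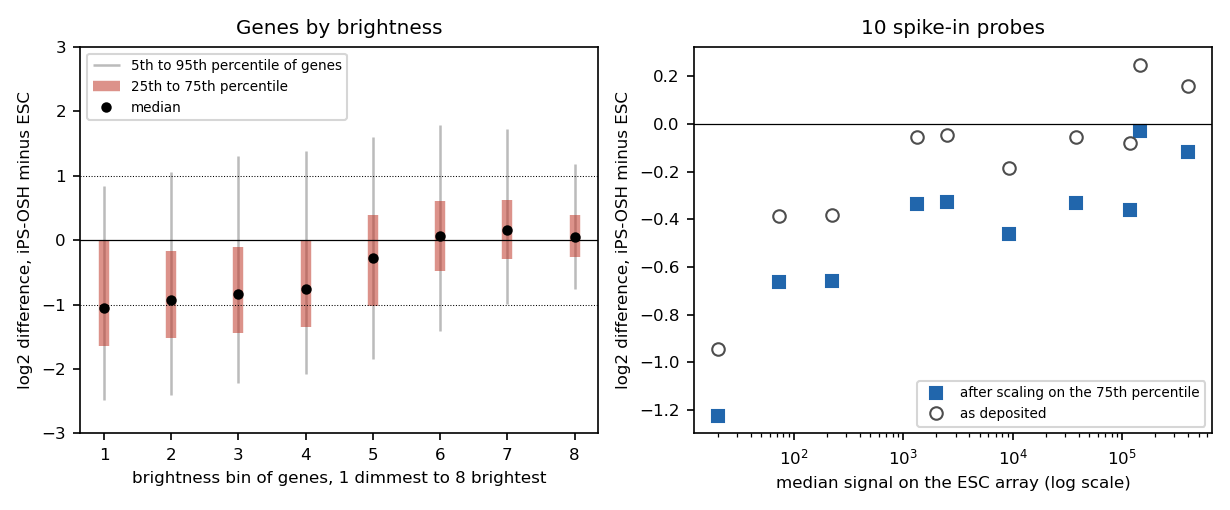
Left, log2 differences of genes (iPS-OSH minus ESC) in 8 bins of equal size by mean brightness over 4 arrays: points are medians, thick bars the 25th to 75th and thin bars the 5th to 95th percentile, and dotted lines mark a 2-fold difference. Right, the 10 spike-in probes against their median signal on the ESC array (log axis), as deposited (circles) and after scaling (squares); the dimmest probe lies at -1.22 after scaling and the brightest at -0.12.

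Over all 30714 genes, 8.58% exceeded ESC by 2-fold or more in iPS-OSH (2636 genes, 347 of them lower bounds) and 28.2% were at least 2-fold lower (8649 genes, 1631 of them bounds). A bound stands for a gene well above background on only 1 of the arrays, and its difference is written as "at least". The median difference was -0.30, and Pearson's r of the log2 signals across the 27552 genes measured on both arrays was 0.946 (Spearman's rho 0.930), across genes that are not independent replicates. At 8-fold the sides were closer in number, 229 higher and 298 lower. Other detected probes of the higher genes had the same direction in 70.7% of 866 cases, and those of the lower genes in 87.4% of 3013. Fewer of them, 42.3% and 50.5%, also differed by at least 2-fold in that direction. Dim probes read lower as a class, and the part of that in the 87.4% was not tested. Scaling on the spike-in probes in place of the percentile would raise every difference by about 0.43, so a negative median closer to 0 than that would turn positive. The percentile over probes well above background on all 4 arrays lowered the median of all genes to -0.48. Positive medians near 0 are thus not settled in sign either.

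The 3 largest measured differences were on the lower side, Ppp1r14d, Lgals6 and the 2-cell stage gene Tcstv3. Ppp1r14d, which encodes an inhibitor of a protein phosphatase, had scaled signals of 289 in iPS-OSH, 55244 in ESC and 308 in iPS-J, with a signal not well above background in MEF. The signal was high in ESC alone, and iPS-OSH stood 191-fold below it (-7.58). Lgals6, a galectin gene, had signals of 33.9 in iPS-OSH, 5526 in ESC, 59.7 in iPS-J and 36.7 in MEF, a difference of -7.35. Slc27a2, a fatty acid transporter and acyl-CoA synthetase gene, differed by -4.78, the potassium channel gene Kcnb2 by -4.71, and Padi2, which converts arginine in proteins to citrulline, by -4.51 with its other probe at -4.38. The peptide transporter gene Slc15a2 was lower by at least 35.5-fold and the peptidoglycan recognition gene Pglyrp4 by at least 56.9-fold. For all of these genes iPS-J also lay far below ESC, with 189.9 for Slc27a2 and 120.0 for Padi2 against 3585 and 956 in ESC. On the higher side, Il1rl1, a receptor of the interleukin receptor family, had signals of 14586 in iPS-OSH, 316 in ESC, 774 in iPS-J and 21614 in MEF, which is 5.53 above ESC, and its other probe stood at 3.58. Samd5 was higher by 4.97, the caveolar gene Cavin2 by 4.43 and the G protein-coupled receptor gene Gpr176 by 4.35, and each had a higher signal still in MEF (1765, 65859.6 and 15699 against 1252, 33629.8 and 3244 in iPS-OSH). Lilrb4a, an inhibitory receptor of myeloid cells, and Olr1, a scavenger receptor for oxidized lipoprotein, were among the largest bounds, at least 5.25 and 4.26.

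**Figure D2:**
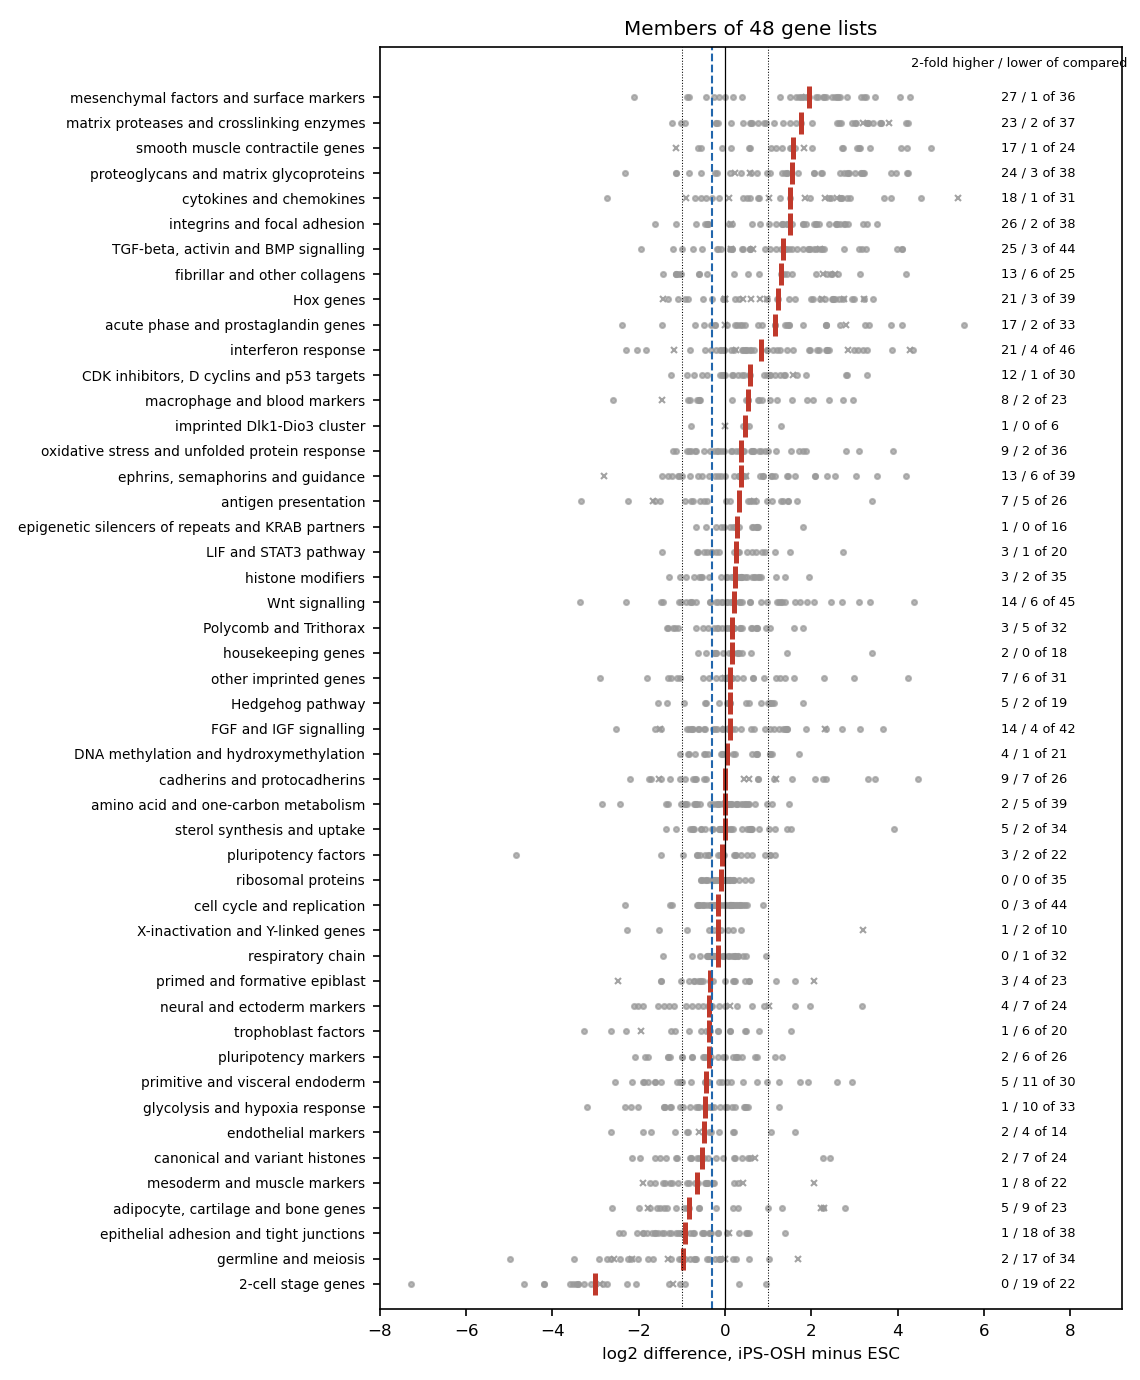
Log2 differences (iPS-OSH minus ESC) of the compared members of 48 gene lists: circles are measured genes, crosses are lower bounds, red bars are list medians, and the text at the right gives the numbers at least 2-fold higher and lower. The dashed line is the median of all genes (-0.30) and dotted lines mark a 2-fold difference; lists run from 2-cell stage genes (-3.0) to mesenchymal factors (1.94).

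The pluripotency transcription factors were present at like levels on both arrays, with a few exceptions. Among the factors, of 22 members compared, 3 were higher, 2 lower and 17 within 2-fold (median -0.07), beside 8.58% higher and 28.2% lower of all genes and 11.2% and 10.9% of the brighter genes, to which all 22 belong. Every member had a higher signal on both arrays than in MEF. The median turned sign with spike-in scaling (0.37). Pou5f1 had scaled signals of 6723 in iPS-OSH, 5779 in ESC, 9790.1 in iPS-J and 47.9 in MEF. Sox2 read 9315 in iPS-OSH, 13854 in ESC and 11511 in iPS-J, with a signal not well above background in MEF. Both lay within 2-fold (0.22 for Pou5f1 and -0.57 for Sox2), and the iPS-OSH and ESC signals were far above MEF. Nanog read 51867 in iPS-OSH, 67744 in ESC, 53404 in iPS-J and 105 in MEF with its brightest probe, a difference of -0.39. The orphan nuclear receptor gene Esrrb (-0.45), its relative Nr5a2 (-0.03), Nr0b1 (0.52), the germ cell factor gene Prdm14 (-0.11), Sall1 (-0.36), Sall4 (0.64), Dppa2 (0.24) and Dppa4 (-0.16) were within 2-fold as well. Of the Krüppel-like factors, Klf5 was at 0.37, Klf4 at -0.66 and Klf2 at -0.98, and the T-box factor gene Tbx3 at -0.64, so these 4 ran from slightly above ESC to nearly 2-fold below it. Utf1, a chromatin-bound factor of undifferentiated cells, was 2.06-fold higher (69378 against 33639), the zinc finger gene Zscan10 2.06-fold and the homeobox gene Gbx2 2.25-fold, while Tfcp2l1 stopped short of the threshold at 0.93. Tcl1, a cofactor of the kinase AKT that promotes self-renewal, was 2.78-fold lower (8082 against 22506).

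Zfp42, which encodes the zinc finger protein REX1 and is a standard marker of undifferentiated embryonic stem cells, was the factor that differed most. Its probe (mm9 chr8:44380667-44380726) had signals of 4669 in iPS-OSH, 134454 in ESC and 6963 in iPS-J, with a signal not well above background in MEF. iPS-OSH was 28.8-fold lower than ESC (-4.85), iPS-J was low as well, and both iPS signals were above MEF. Among further markers of pluripotent cells, of 26 members compared, 2 were higher, 6 lower and 18 within 2-fold (median -0.38), with a median of 0.05 under spike-in scaling. Of all genes 8.58% were higher and 28.2% lower. For the brighter genes, to which 25 of the 26 belong, the shares were 11.2% and 10.9%. Fbxo15, the F-box gene first used to select reprogrammed cells, had signals of 18092 in iPS-OSH, 62205 in ESC, 22246 in iPS-J and 46.3 in MEF, 3.44-fold lower in iPS-OSH. Dppa3, a maternal factor that protects methylated DNA in the zygote, read 1504 in iPS-OSH, 5399.8 in ESC, 1503 in iPS-J and 51.4 in MEF, and here too the iPS lines were alike and below ESC. The Nodal co-receptor gene Tdgf1 (-1.33, other probes -1.29 to -1.0), the Nodal antagonist gene Lefty1 (-1.32), the glucose transporter gene Slc2a3 (-1.27) and Fut9 (-2.09), whose enzyme makes the surface antigen SSEA, were lower than in ESC. Nodal itself was at 0.70, Gdf3 at 0.40 and L1td1 at -0.05. Lin28a, an RNA-binding protein that blocks maturation of a microRNA family, was 2.25-fold higher (22882 against 10185), and Spp1, a secreted matrix protein that fibroblasts make too, 2.48-fold.

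Along the LIF pathway, of 20 members compared, 3 were higher, 1 lower and 16 within 2-fold (median 0.25). Of all genes 8.58% were higher and 28.2% lower. For the brighter genes, to which 18 of the 20 belong, the shares were 11.2% and 10.9%. The receptor chain genes Lifr and Il6st were at -0.49 and 0.86, the kinase genes Jak1 and Jak2 at 0.31 and 0.72, Stat3 at 0.33, and the adaptor and phosphatase genes Grb2 and Ptpn11 at -0.61 and 0.52. Socs3, the feedback inhibitor that STAT3 induces, was 2.73-fold lower, with signals of 12041 in iPS-OSH, 32910 in ESC, 32211 in iPS-J and 8850.1 in MEF, so that iPS-J matched ESC and iPS-OSH lay nearer to MEF. Other STAT3 targets in the list were not 2-fold lower, with Klf4 at -0.66, Bcl3 at -0.34, Pim3 at -0.30, Pim1 at -0.13, Junb at 0.20 and Socs2 at 0.63. The other inhibitor gene Socs1 was at -0.41 and the adaptor gene Gab1 at -0.21. Myc, a driver of growth and a classic reprogramming factor, had signals of 7072 in iPS-OSH, 1069.5 in ESC, 3218 in iPS-J and 4185 in MEF, 6.61-fold higher in iPS-OSH than in ESC and the highest of the 4 arrays. Lif itself was dim but 2.83-fold higher (174 against 61.3).

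**Figure D3:**
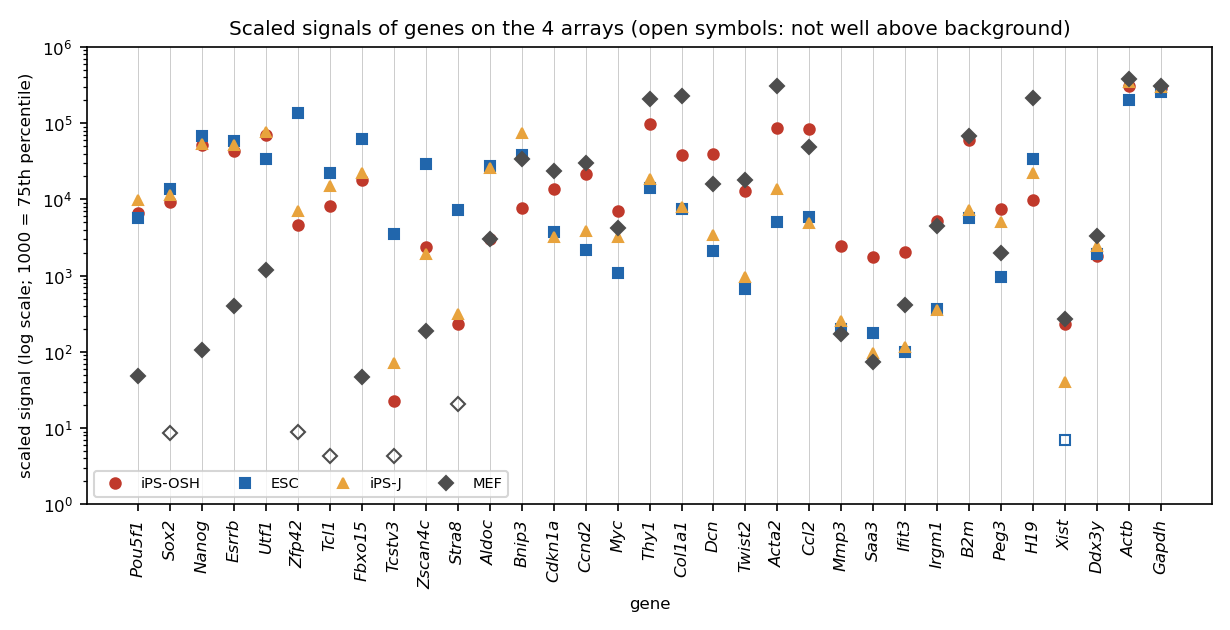
Scaled signals (log axis, 1000 is the 75th percentile of an array) of 33 genes on the 4 arrays, 1 array a group: circles iPS-OSH, squares ESC, triangles iPS-J and diamonds MEF, open where the probe was not well above background. Zfp42, Tcstv3 and Stra8 have their highest signal in ESC, whereas Dcn, Twist2 and Ccl2 stand high in iPS-OSH and MEF.

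Markers of cell types were summed on each array to check the labels and to see which other cells the RNA could hold. The 10 markers of pluripotent cells summed to 355479 scaled signal units in iPS-OSH, 587434 in ESC, 499999 in iPS-J and 1915 in MEF, so both arrays had the markers of their labelled cell type. The 15 fibroblast markers, among them Col1a1, Thy1, Dcn and Twist2, summed to 409488 in iPS-OSH against 52726 in ESC and 74673 in iPS-J. That is 29.3% of the MEF sum for iPS-OSH, 3.77% for ESC and 5.34% for iPS-J. Of the 15, 14 exceeded ESC by 2-fold or more and 0 were lower (median 2.82), and all were well above background on both arrays. The 10 markers of macrophages and other blood cells summed to 23535 in iPS-OSH, 9714 in ESC, 16048 in iPS-J and 37120.3 in MEF, with 6 higher and 0 lower. Ptprc, which encodes CD45 and defines blood cells, was not among the higher markers: it read 91.4 in iPS-OSH, 162 in ESC, 76.4 in iPS-J and 174 in MEF (-0.82). Primitive endoderm markers were lower as a sum in iPS-OSH (8672 against 21432), and the sums of endothelial (6544 against 6328), trophoblast (1179 against 1819.6) and neural markers (3894 against 5009.9) stayed within 2-fold. In iPS-OSH 4 of 6 endothelial, 5 of 6 trophoblast and 5 of 6 neural markers were well above background. Those that were not were the endothelial genes Tie1 and Emcn, the trophoblast gene Elf5 and the neural gene Dcx. Tie1 and Dcx were not well above background in ESC either. The part of fibroblast or blood cells in the gene groups described next was not tested, and their MEF levels are given beside them. Counts in all these groups stand beside 8.58% higher and 28.2% lower of all genes. For the brighter genes these shares were 11.2% and 10.9%, and for the dimmer genes 5.97% and 45.4%.

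**Figure D4:**
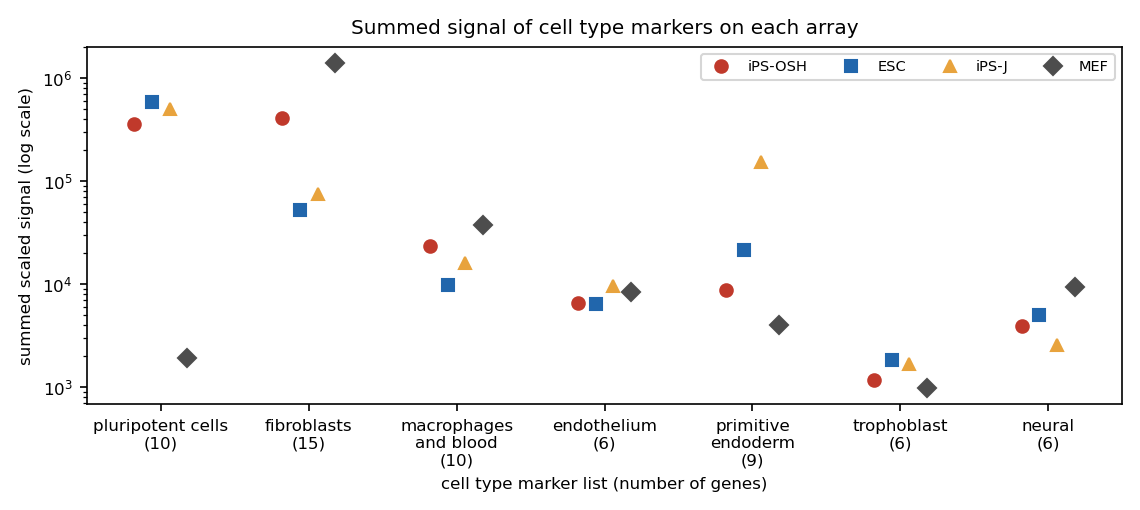
Summed scaled signal (log axis) of the markers of 7 cell types on each of the 4 arrays, with the number of genes in parentheses. Fibroblast markers sum to 409488 in iPS-OSH and 52726 in ESC, whereas pluripotent cell markers sum to 355479 and 587434.

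Genes of the extracellular matrix were higher in iPS-OSH as a group. For proteoglycans and matrix glycoproteins, of 38 members compared, 24 were higher, 3 lower and 11 within 2-fold (median 1.56), and for collagens, of 25 members compared, 13 were higher, 6 lower and 6 within 2-fold (median 1.30). The collagen median was 0.78 over measured genes alone, and 0.31 to 1.74 over the alternatives. Dcn, the small leucine-rich proteoglycan decorin, which binds collagen fibrils, had signals of 39629 in iPS-OSH, 2089.9 in ESC, 3410.3 in iPS-J and 15743 in MEF (probe at mm9 chr10:96980233-96980292). iPS-OSH was 19-fold above ESC and also above MEF, and iPS-J stayed within 2-fold of ESC. Fbln5, an elastic fibre gene, was 18.7-fold higher (10228 in iPS-OSH, 546 in ESC, 861 in iPS-J and 48216 in MEF). Ltbp2, another, was 14.3-fold higher (34399.6 in iPS-OSH, 2403 in ESC, 5837 in iPS-J and 58012 in MEF). Tnc, an adhesion-modulating glycoprotein of wounds, was as bright in iPS-OSH as in MEF (3105 and 3138) and 15.6-fold above ESC, and Thbs2 and Fbln2 were 9.30-fold and 9.15-fold higher. Elastin itself (Eln) was lower (-1.15), as were the cartilage proteoglycan gene Acan (-1.14) and Thbs4 (-2.31), while the fibrillin gene Fbn2 was at 0.11. Of the collagens, Col1a1 had signals of 38549 in iPS-OSH, 7530.4 in ESC, 8051 in iPS-J and 228227 in MEF. Col1a2 read 91016 in iPS-OSH, 16506 in ESC, 21533 in iPS-J and 313982 in MEF. Both were higher than in ESC (5.12-fold and 5.51-fold) and well under MEF. Col12a1, a collagen that sits on the surface of fibrils, was 18.3-fold higher, Col8a1 8.80-fold, Col16a1 6.15-fold and Col5a1 5.57-fold. The lower collagens, Col15a1, Col23a1, Col13a1, Col9a1, Col17a1 and Col8a2, were dim on both arrays and differed by -1.44 to -1.01, and the list had 0 lower members with loess normalization between the arrays.

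Enzymes that cut and crosslink the matrix followed, with 23 of 37 higher and 2 lower (median 1.76). Lox, which crosslinks collagen and elastin, read 5403 in iPS-OSH, 285 in ESC, 518 in iPS-J and 25152 in MEF, 19-fold higher in iPS-OSH, and its other probe gave 4.43. Timp3, an inhibitor of metalloproteases, was 18.2-fold higher and the collagen-degrading cathepsin gene Ctsk 12.1-fold. The stromelysin genes Mmp3 and Mmp10 and the collagenase gene Mmp13 had a different order over the arrays. Mmp3 read 2456 in iPS-OSH, 199.8 in ESC, 252 in iPS-J and 172 in MEF. Mmp10 read 1843 in iPS-OSH, 150.1 in ESC, 195 in iPS-J and 429 in MEF. Mmp13 read 441 in iPS-OSH and 86.0 in MEF, with a signal not well above background in iPS-J or ESC. All 3 were brightest in iPS-OSH, where they stood 12.3-fold, 12.3-fold and at least 14.0-fold above ESC, so MEF was not the array with the highest signal. The collagen prolyl hydroxylase genes P4ha1 and P4ha2 were at -0.93 and -1.02, and the lysyl hydroxylase genes Plod1 and Plod2 at 0.14 and -0.16.

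Regulators and surface proteins of mesenchymal cells had the highest list median, 1.94, with 27 of 36 members higher and 1 lower. Twist2, a basic helix-loop-helix factor of dermal mesenchyme, read 12956 in iPS-OSH, 660.4 in ESC, 965 in iPS-J and 17810.1 in MEF, 19.6-fold higher than in ESC. Prrx1, a homeobox factor of limb and head mesenchyme, was 9.30-fold higher with its other probe at 3.52, and the T-box factor gene Tbx15 9.62-fold. Cd44, the hyaluronan receptor, read 17478 in iPS-OSH, 1057 in ESC, 1824 in iPS-J and 25414 in MEF, 16.5-fold above ESC. Thy1, a surface marker of fibroblasts, read 98807 in iPS-OSH, 13946 in ESC, 18576 in iPS-J and 211017 in MEF, 7.08-fold above ESC. In each of these genes iPS-OSH lay between ESC and MEF and nearer to MEF on the log2 scale. Cdh11, the mesenchymal cadherin, was at 3.47 by its brightest probe and 0.79 by the other. Msx1, a homeobox gene of limb mesenchyme, was the lower member (-2.10, 274 against 1176), and Runx2, the master factor of bone, was dim and at -0.83. Among integrins and focal adhesion genes, of 38 members compared, 26 were higher, 2 lower and 10 within 2-fold (median 1.5). Itga4, an integrin chain that binds fibronectin and VCAM, was 11.4-fold higher (772 against 67.7), the focal adhesion adaptor genes Zyx and Parva 9.83-fold and 6.86-fold, and the caveolin genes Cav1 and Cav2 6.72-fold and 7.24-fold. Itga6, a laminin receptor chain of embryonic stem cells, stayed at -0.39, and Itgb6, an epithelial chain, was lower (-1.63).

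Contractile genes of smooth muscle, which activated fibroblasts also express, were higher in 17 of 24 members and lower in 1 (median 1.58). Acta2, smooth muscle actin, had signals of 85962 in iPS-OSH, 5119 in ESC, 13631 in iPS-J and 304914 in MEF. Actg2, the enteric form, read 9597 in iPS-OSH, 350.0 in ESC, 1214 in iPS-J and 92682 in MEF. iPS-OSH was 16.8-fold and 27.4-fold above ESC, and MEF was brighter still for both. Myl9, a light chain of myosin, was 18.7-fold higher, the calponin gene Cnn1 10.3-fold, Tagln 8.58-fold and Cald1 8.76-fold. Myocd, the coactivator that drives these genes in smooth muscle, was not well above background in iPS-OSH (at least 2.20-fold lower), the intermediate filament gene Des was at -0.55, and Smtn at -0.08. Such genes are classic targets of serum response factor, which binds the CArG box, and Srf, its gene, was 2.90-fold higher with its other probe at 0.01. Srf was chosen for naming after its values were seen, because its promoter holds the box. Of 24 members, 20 had a RefSeq promoter window (GRCm38.p6), and 4 of these (20%) held a CArG box in the 250 bases before the start, against 1.62% of 27025 genes. All 4 were among the 15 higher members with a window. Only 5 members within 2-fold and 0 lower members had a window, so the box could hardly be found elsewhere. The list gathers genes known as such targets, and the part of serum response factor in their differences was not tested. The last 170 bases before the start of Myl9 (chr2:156775294-156775463, plus strand) and Srf (chr17:46556163-46556332, minus strand) are printed 5′ to 3′ to show the box, in capitals.
Myl9: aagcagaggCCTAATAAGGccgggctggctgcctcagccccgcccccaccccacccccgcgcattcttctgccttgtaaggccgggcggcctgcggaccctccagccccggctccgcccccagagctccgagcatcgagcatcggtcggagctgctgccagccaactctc
Srf: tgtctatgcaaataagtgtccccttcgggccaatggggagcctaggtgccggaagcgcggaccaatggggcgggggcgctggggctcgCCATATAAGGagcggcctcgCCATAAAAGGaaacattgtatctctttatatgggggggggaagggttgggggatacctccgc
A match is a stretch of letters and not a measured binding site.

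Secreted signals of inflammation were higher in iPS-OSH. Of 31 cytokine and chemokine genes compared, 18 were higher and 1 lower (median 1.5, with 7 bounds), and of 33 acute phase and prostaglandin genes 17 were higher and 2 lower (median 1.15). Over all genes 8.58% were higher and 28.2% lower. Dim members numbered 19 in the first list and 11 in the second, and 5.97% of all dimmer genes were higher. Ccl2 and Ccl7, which recruit monocytes, were bright. Ccl2 read 83963 in iPS-OSH, 5819 in ESC, 4931 in iPS-J and 48628 in MEF. Ccl7 read 41502 in iPS-OSH, 3231 in ESC, 3291 in iPS-J and 30192 in MEF. For both, iPS-OSH was the brightest array and stood 14.4-fold and 12.8-fold above ESC, while iPS-J did not differ from ESC by 2-fold. Ccl11, the eosinophil attractant eotaxin, read 1061 in iPS-OSH and 291 in MEF, with a signal not well above background in iPS-J or ESC. It was at least 42.1-fold higher than in ESC, and Ccl5 was 7.46-fold higher. Csf1, the growth factor of macrophages, was 23.4-fold higher (27795 in iPS-OSH, 1190.3 in ESC, 2603 in iPS-J and 31557 in MEF), with its other probes at 3.94 to 4.05. Cxcl12, the ligand of CXCR4, was 7.06-fold higher but brightest in MEF (43651 against 4826). Ccl3 was the lower member (101 against 671, -2.73), and Cxcl10 and Tnf, genes of strong inflammation, were dim and at -0.31 and -0.70. Ptgs2, the inducible prostaglandin synthase, had signals of 8942 in iPS-OSH, 524 in ESC, 747 in iPS-J and 11038 in MEF. The adhesion gene Vcam1 read 10304 in iPS-OSH, 711 in ESC, 1201 in iPS-J and 22751 in MEF. Each was far higher than in ESC (17.1-fold and 14.5-fold). Saa3, the serum amyloid gene that stromal cells and macrophages make, read 1779 in iPS-OSH, 175 in ESC, 95.7 in iPS-J and 73.2 in MEF. The complement gene Cfb read 176 in iPS-OSH, with a signal not well above background in MEF, iPS-J or ESC. Saa3 was brightest in iPS-OSH, 10.2-fold above ESC, and Cfb, though dim, was well above background in iPS-OSH alone, at least 7.0-fold above ESC. Ptx3, a pattern recognition gene, was 9.42-fold higher but far brighter in MEF (8108 against 426). Icam1 was at 0.06 and Saa2 at -2.39.

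Of 23 macrophage and blood genes, 8 were higher and 2 lower (median 0.53), beside 8.58% and 28.2% of all genes. Among them 13 were dim, and of all dimmer genes 5.97% were higher and 45.4% lower. Tyrobp, a signalling adaptor of myeloid cells, read 727 in iPS-OSH, 92.9 in ESC, 111 in iPS-J and 1779 in MEF. Lyz1, lysozyme, read 3522 in iPS-OSH, 532 in ESC, 627 in iPS-J and 9112 in MEF. Both were brightest in MEF, with iPS-OSH 7.82-fold and 6.62-fold above ESC. Laptm5, a lysosomal protein of blood cells, was brightest in iPS-OSH (1629.9 in iPS-OSH, 554 in ESC, 1455 in iPS-J and 234 in MEF). Itgam, a macrophage integrin chain, was at 1.90, but the 2 other probes of Itgam went the other way (-1.76 to -1.48). The embryonic globin genes Hbb-bh1 and Hba-x were lower, at -2.59 and by at least 2.77-fold, Spi1, the master factor of myeloid cells, was dim and at -0.86, and Cd34, a stem cell antigen, at 0.48.

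Interferons are antiviral cytokines whose receptors activate STAT and IRF factors, and these bind a repeat of GAAA upstream of their target genes. Of 46 interferon response genes, 21 were higher in iPS-OSH and 4 lower (median 0.82), with 21 among the dimmer genes. The promoters of Ifit1, Ifit3, Isg15, Irgm1 and Oas3 are shown because 4 of these genes were higher and Oas3 was lower although it holds the same letters. The 160 bases before each start are given 5′ to 3′ (RefSeq, GRCm38.p6), with the motif GAAANNGAAA or its reverse complement TTTCNNTTTC in capitals, overlapping copies joined: Ifit1 at chr19:34640729-34640888 (plus strand), Ifit3 at chr19:34583369-34583528 (plus), Isg15 at chr4:156200819-156200978 (minus), Irgm1 at chr11:48871421-48871580 (minus) and Oas3 at chr5:120777660-120777819 (minus).
Ifit1: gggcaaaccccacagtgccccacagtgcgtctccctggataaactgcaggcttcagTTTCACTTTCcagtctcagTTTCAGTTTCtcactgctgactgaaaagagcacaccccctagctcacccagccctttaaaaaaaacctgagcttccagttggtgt
Ifit3: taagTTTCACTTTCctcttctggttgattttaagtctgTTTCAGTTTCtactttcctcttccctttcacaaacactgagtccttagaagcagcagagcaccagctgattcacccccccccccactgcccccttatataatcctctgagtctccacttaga
Isg15: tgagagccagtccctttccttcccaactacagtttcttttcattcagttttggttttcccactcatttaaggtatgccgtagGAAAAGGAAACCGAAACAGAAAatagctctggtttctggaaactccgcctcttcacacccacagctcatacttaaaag
Irgm1: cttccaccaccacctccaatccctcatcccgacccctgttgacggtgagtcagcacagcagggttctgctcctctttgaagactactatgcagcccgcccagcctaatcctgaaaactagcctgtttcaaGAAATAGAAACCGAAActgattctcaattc
Oas3: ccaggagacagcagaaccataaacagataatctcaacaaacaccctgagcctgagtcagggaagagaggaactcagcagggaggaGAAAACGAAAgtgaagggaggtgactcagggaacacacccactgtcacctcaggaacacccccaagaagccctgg
Of 47 members, 34 had a promoter window, and 15 of these (44.1%) held the motif on either strand in the 250 bases before the start, against 3.46% of 27025 genes with a window. The list gathers genes known to respond to interferon, so the excess over all genes reflects how the list was chosen. The part of interferon in their differences was not tested. The motif was found in 6 of 18 higher members, 6 of 12 within 2-fold and 2 of 3 lower members, so it was found on both sides, and the member left was not compared. A match is a description of letters and says nothing of binding.

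Ifit3, an RNA-binding antiviral protein (probe at mm9 chr19:34663105-34663164), read 2033 in iPS-OSH, 99.0 in ESC, 116 in iPS-J and 408 in MEF. Its neighbour Ifit1 read 396 in iPS-OSH, 40.5 in ESC and 202 in MEF, with a signal not well above background in iPS-J. iPS-OSH was the brightest array for both, 20.5-fold and 9.78-fold above ESC. Irgm1, a GTPase that acts against intracellular bacteria, read 5260.4 in iPS-OSH, 362 in ESC, 359 in iPS-J and 4492 in MEF (14.5-fold, other probe 3.71). Ifi27 read 29693 in iPS-OSH, 3253 in ESC, 3959 in iPS-J and 50439 in MEF (9.13-fold). For both, MEF lay within 2-fold of iPS-OSH, and iPS-J within 2-fold of ESC. Ifi44 was at least 19.6-fold higher and Ifih1, the sensor of long viral RNA, 8.45-fold, and Isg15, a ubiquitin-like modifier, stood at 2.35 (6666 against 1303) and was named after its values were seen, for its promoter. The lower members were Irf8, a factor of the blood lineage (165 against 808, -2.29), Oas3 (-2.04) and Oas1g (-1.84), which make the activator of RNase L, and Mx1, which was not well above background in iPS-OSH. Oas1g shares close sequence with its paralogs, so its probe may read several of them. Ifitm1, which is bright in pluripotent cells, was at -0.80, with signals of 20577 in iPS-OSH, 35929 in ESC, 25929 in iPS-J and 972 in MEF. The signal transducer gene Stat2 was at -0.46 and the sensor regulator gene Dhx58 at -0.01.

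Of 26 genes of antigen presentation, 7 were higher and 5 lower (median 0.32), beside 8.58% higher and 28.2% lower of all genes. B2m, the shared light chain of class I molecules, read 60630.3 in iPS-OSH, 5677 in ESC, 7183 in iPS-J and 67132 in MEF, so iPS-OSH was near MEF and 10.7-fold above ESC. The class I heavy chain gene H2-D1 was 3.16-fold higher, the peptide transporter genes Tap1 and Tap2 2.54-fold and 2.48-fold, their partner Tapbp 2.75-fold and the immunoproteasome gene Psmb8 2.75-fold, whereas Psmb9 was at -0.92 and H2-Q4 at 0.02. On the class II side, H2-Ab1 read 113 in iPS-OSH, 1146 in ESC, 1419 in iPS-J and 327 in MEF, -3.34 with its other probe at -2.93, and H2-Aa was not well above background in iPS-OSH. Nlrc5, the class I transactivator, was at -1.5 by its brightest probe and 1.08 by the other.

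Secreted growth factors and antagonists were among the genes with the largest differences. In the transforming growth factor family, of 44 members compared, 25 were higher, 3 lower and 16 within 2-fold (median 1.34). All genes gave 8.58% higher and 28.2% lower. The ligand gene Inhba, which forms activin, read 30046 in iPS-OSH, 1752 in ESC, 2920.5 in iPS-J and 55125 in MEF, 17.1-fold higher in iPS-OSH. Grem1, an antagonist of the bone morphogenetic proteins (23472 in iPS-OSH, 1357 in ESC, 3769.6 in iPS-J and 10454 in MEF), and the activin antagonist Fst (8.61-fold) were higher too, and Grem1 was brighter in iPS-OSH than in MEF. Nog, another such antagonist, was lower (279.9 against 1084, -1.95), as were the ligand genes Bmp7 (-1.22) and Bmp5 (-1.0). Of the receptors, Tgfbr2 was 9.05-fold higher (other probe 1.21), whereas Tgfbr1 was at 0.12, Acvr2a at -0.74 and Acvr2b at -0.54. The matricellular target gene Ccn1 was 9.65-fold higher.

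For Wnt signalling, of 45 members compared, 14 were higher, 6 lower and 25 within 2-fold (median 0.21). The shares over all genes were 8.58% higher and 28.2% lower. Higher members were the antagonist genes Dkk2 (2961 in iPS-OSH, 143 in ESC, 312 in iPS-J and 2887 in MEF) and Frzb (10.3-fold), the Wnt-induced genes Ccn4 (8.64-fold) and Ccn5 (6.52-fold), the receptor gene Fzd1 (5.50-fold) and the ligand gene Wnt5a (4.18-fold). Dkk2 was as bright as in MEF and 20.7-fold above ESC. Lower members were the decoy genes Sfrp4 (-3.35) and Wif1 (-2.29), the ligand genes Wnt10b (-1.49) and Wnt2b (-1.44) and the receptor genes Fzd4 (-1.02) and Fzd9 (-1.08). Among FGF and IGF genes, of 42 members compared, 14 were higher, 4 lower and 24 within 2-fold (median 0.11). Fgf7, a stromal factor for epithelium, was 8.78-fold higher, Pdgfc 6.52-fold, the binding protein genes Igfbp6 and Igfbp7 5.08-fold and 12.7-fold, and Fgf2 at least 5.00-fold. Fgf1 (-2.52), the receptor gene Fgfr4 (-1.63) and Fgf15 (-1.47) were lower, and the feedback phosphatase gene Dusp4 was at -0.04.

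The Hedgehog pathway, in which the receptor Ptch1 holds back Smo until a ligand binds, showed no common shift: of 19 members compared, 5 were higher, 2 lower and 12 within 2-fold (median 0.12), with a median of -0.05 to 0.56 over the alternatives. Shh, the main ligand gene, was not well above background on either array. The ligand genes Dhh and Ihh were dim and at 0.12 and -0.44, and Disp1, which releases ligand from cells, was 3.49-fold higher. Ptch1 was at 0.49, Smo at 0.84 with its other probe at 2.06, and the co-receptor genes Boc, Cdon and Gas1 at 0.12, 0.07 and 1.0, which is just short of 2-fold. The effectors Gli2 and Gli3 were 2.12-fold and 2.06-fold higher, and Gli1, the usual readout of pathway activity, read 2979 in iPS-OSH, 2039 in ESC, 1438 in iPS-J and 101 in MEF, within 2-fold of ESC (0.55) and far above MEF. Hhip, a decoy that is itself a target, was lower (64.6 against 189), Hhat was at -1.33 with its other probe at 1.34, Sufu at -0.95 with 0.76, and Kif7 at -0.15. The cilium genes Evc and Evc2 were at 1.13 and 0.05, and the Polycomb gene Bmi1 at 1.04.

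Guidance and adhesion genes differed in both directions. Of 39 ephrin, semaphorin and guidance genes, 13 were higher and 6 lower (median 0.36), with 10 dim members. Nrp1, a co-receptor for semaphorins and VEGF, read 1175 in iPS-OSH, 63.9 in ESC, 83.1 in iPS-J and 2867 in MEF, 18.4-fold above ESC. Its ligand gene Sema3c was 11.6-fold higher and Sema3a was at 3.03, though the other Sema3a probe stood at -0.65. Robo1 (-1.45), Plxnd1 (-1.33) and Ephb2 (-1.22) were lower. Of 26 cadherins and protocadherins, 9 were higher, led by Pcdh7 (4.47, other probes 0.74 to 2.11), Pcdh19 (3.32) and Cdh2, the neural and mesenchymal cadherin (2.28), and 7 lower, led by Pcdh8 (-2.20) and Cdh15 (-1.75), with 15 dim members.

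The replication and mitosis genes were nearly level. Of 44, 41 lay within 2-fold, 0 were higher and 3 lower (median -0.15, 0.28 under spike-in scaling). Ccne1, the cyclin that starts replication, was at 0.87 (49096 against 26883), the replication licensing genes Mcm2 and Mcm3 at 0.37 and 0.51, Rrm1 at 0.01 and Cdc20 at 0.46. The lower members were Aurkb (-2.32, dim on both arrays), the kinesin gene Kif20a (-1.27) and Cenpe, a kinetochore motor (-1.24). Inhibitors of the cycle, D cyclins and p53 targets were higher more often, 12 of 30 with 1 lower (median 0.57). Ccnd2 read 21468 in iPS-OSH, 2194 in ESC, 3813 in iPS-J and 30487 in MEF. Ccnd1 read 38851 in iPS-OSH, 5476 in ESC, 10768 in iPS-J and 35224 in MEF. These D cyclins were within 2-fold of MEF in iPS-OSH, and 9.78-fold and 7.09-fold above ESC. Cdkn2b, an inhibitor that TGF-beta induces, was 6.94-fold higher (5767 in iPS-OSH, 831 in ESC, 1545 in iPS-J and 17088 in MEF), and Cdkn1a, the best known p53 target, read 13609.9 in iPS-OSH, 3726 in ESC, 3178 in iPS-J and 23370.5 in MEF, 3.65-fold, with its other probes at -0.27 to 1.08. Phlda3, another p53 target, was 3.17-fold higher, while Bbc3 was at -0.71, Cdkn1b at -0.01, and Cdkn1c, the imprinted inhibitor, lower (-1.24).

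In the glycolysis and hypoxia list, 10 of 33 members were lower and 1 higher (median -0.45), against 4 lower under spike-in scaling and 10 with loess normalization. That share is near the 28.2% of all genes and above the 10.9% of the brighter genes, and 2 members were dim. Aldoc, a brain and hypoxia form of aldolase, read 3005 in iPS-OSH, 27571 in ESC, 25732 in iPS-J and 3010.0 in MEF. Bnip3, a mitophagy receptor, read 7691 in iPS-OSH, 38155 in ESC, 74707 in iPS-J and 33426 in MEF. iPS-OSH was the array with the lowest signal for both, level with MEF for Aldoc, 9.17-fold and 4.96-fold under ESC, and the other probes of Bnip3 gave -3.02 to -2.37. The hypoxia target genes Ankrd37 (1162 against 5281) and Car12 (556 against 1482), the lactate transporter gene Slc16a3 (7198 against 29311) and the glucose transporter gene Slc2a1 (29778 against 79990.1) were lower by 4.54-fold, 2.67-fold, 4.07-fold and 2.69-fold. Of the core glycolysis enzymes, Gpi1 at 0.01, Pgam1 at 0.44, Pkm at 0.24 and Hk1 at 0.05 were near or above ESC. Pfkp, a phosphofructokinase gene, was just past 2-fold lower (-1.05, other probe -0.28), and Ldhb (-0.81), Aldoa (-0.66), Pgk1 (-0.63) and Pfkl (-0.60) were below ESC within 2-fold, and these 5 enzymes were chosen for naming after their values were seen. Vegfa, the angiogenic target, was 2.37-fold higher. Respiratory chain genes had 1 lower and 0 higher of 32 (median -0.17), the lower being Cox7a1, a muscle-type subunit (4291 against 11588), and 0 of 35 ribosomal protein genes differed by 2-fold (median -0.08, 0.35 under spike-in scaling).

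In amino acid and folate metabolism, of 39 members compared, 2 were higher, 5 lower and 32 within 2-fold (median 0.00). Gldc, the glycine cleavage enzyme that is abundant in pluripotent cells, read 3323 in iPS-OSH, 18026 in ESC, 12815 in iPS-J and 294 in MEF, 5.42-fold lower in iPS-OSH, and the proline synthesis gene Pycr1 was 2.60-fold lower. Mat2a, which makes the methyl donor S-adenosylmethionine, was 2.13-fold higher (68507 against 32238). Among sterol genes, of 34 members compared, 5 were higher, 2 lower and 27 within 2-fold (median -0.01). Ch25h, an interferon-induced hydroxylase, read 1811 in iPS-OSH, 121 in ESC, 139 in iPS-J and 1665 in MEF (15.0-fold). The cholesterol efflux gene Abca1 was 2.71-fold higher, Fdps was 2.56-fold lower, and Hmgcs1 and Cyp51 were at -0.07 and 0.05. For oxidative stress and unfolded proteins, of 36 members compared, 9 were higher, 2 lower and 25 within 2-fold (median 0.37). Sod3, the extracellular superoxide dismutase, read 4406 in iPS-OSH, 298 in ESC, 341 in iPS-J and 6680.3 in MEF, and the small heat shock gene Cryab was 8.59-fold and Gpx8 6.97-fold higher than in ESC. The glutathione transferase gene Gsta3 read 5930.4 in iPS-OSH, 1693 in ESC, 1006 in iPS-J and 33.4 in MEF, so it was brightest in iPS-OSH and low in MEF. Xbp1 was at -0.02, and the stress genes Trib3 and Chac1 at -0.89 and -0.70.

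Genes of the 2-cell embryo, which a small share of embryonic stem cells express at any time, were the list with the lowest median. Of 22 compared, 19 were lower in iPS-OSH and 0 higher (median -3.0), and 15 were among the dimmer genes, of which 45.4% were lower. Zscan4c, a zinc finger gene that marks the state, read 2408 in iPS-OSH, 29081 in ESC, 1907 in iPS-J and 188 in MEF, with other probes at -3.76 to -3.44. Zscan4e read 5151 in iPS-OSH, 59657 in ESC and 6563 in iPS-J, with a signal not well above background in MEF. Tcstv3 read 22.6 in iPS-OSH, 3504 in ESC and 71.1 in iPS-J, with a signal not well above background in MEF. In each, ESC was far above both iPS lines. Tmem92 (196 against 4962), Tcstv1 (67.1 against 1232) and Gm4340 (1841 against 33630.5) followed with -4.66, -4.20 and -4.19. Eif1a (0.33) and Zfp352 (-0.93) stayed within 2-fold, and Usp17la gave 0.95 by its brightest and -3.68 by its other probe. These genes come in families of near-identical copies, so several probes may read the same transcripts and the members are not independent.

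Germline and meiosis genes were lower in 17 of 34 members and higher in 2 (median -0.97), against 13 lower under spike-in scaling. Of the 34, 21 were dim, and 11 of these were lower, against 45.4% of all dimmer genes, while 6 of the 13 brighter members were lower, against 10.9% of all brighter genes. With loess normalization 13 were lower, beside 13.9% of all genes. Stra8, which starts meiosis in answer to retinoic acid, read 231 in iPS-OSH, 7329.8 in ESC and 314 in iPS-J, with a signal not well above background in MEF. Its iPS-OSH signal was 31.8-fold under ESC. The cohesin gene Smc1b (336 against 2562), the germ cell bridge gene Tex14 (514 against 3439.9) and the homeobox gene Rhox9 (1208 against 7514) were 7.62-fold, 6.69-fold and 6.22-fold lower, and each was far brighter in ESC than in MEF. Rhox5, the neighbour of Rhox9 on the X chromosome, was bright on both arrays and at 0.26. The X-linked lymphocyte-regulated genes Xlr3a (-3.50) and Xlr5b (-4.46) were lower, and so was Obox6 (-4.74), an oocyte homeobox gene. Tdrd7 was the higher measured member (1.03), brightest in MEF (4263), and Nanos2 was higher by at least 1.69 at a dim level.

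Epithelial genes were lower in 18 of 38 members and higher in 1 (median -0.93), with 11 lower under spike-in scaling. Lower were 8 of the 14 dim and 10 of the 24 brighter members, against 45.4% of all dimmer and 10.9% of all brighter genes. Tjp3, a tight junction scaffold, read 959 in iPS-OSH, 4943 in ESC, 4559 in iPS-J and 306 in MEF, 5.16-fold lower. Ocln, a tight junction membrane protein, read 31.6 in iPS-OSH, 129.8 in ESC, 165 in iPS-J and 41.3 in MEF. In both, iPS-J was near ESC and iPS-OSH was not. The keratin gene Krt19 was 3.49-fold lower, Prom1 3.74-fold (other probe -0.96) and Cldn5 3.74-fold, and Dsg2 was at -2.46 with its other probe at -0.07. Perp, a desmosome gene and p53 target, was 2.61-fold higher, and Grhl2, a regulator of epithelial identity, was at 0.55, F11r at 0.48 and Spint1 at 0.05. Of 30 primitive and visceral endoderm genes, 11 were lower and 5 higher (median -0.45), with 8 lower under spike-in scaling. Over all genes 28.2% were lower and 8.58% higher. The lower endoderm genes were 3 of the 7 dim and 8 of the 23 brighter members. The lower side held the hepatic factor gene Hnf4a (-2.54), Rbp4 (-2.16), the receptor gene Cubn (-1.77, other probe -1.05) and Srgn (-1.89), and for Cubn and Srgn iPS-J was by far the brightest array (32908 and 32907). The higher side held Thbd, Plat, Pdgfra, Col4a1 and Col4a2, which fibroblasts also express. Thbd, the anticoagulant thrombomodulin, read 10803 in iPS-OSH, 1406 in ESC, 1178 in iPS-J and 15950.4 in MEF. Pdgfra, the growth factor receptor, read 2026 in iPS-OSH, 534 in ESC, 2293 in iPS-J and 6516 in MEF. Among 20 trophoblast genes, 9 of them dim, 6 were lower, a share near that of all genes, led by the placental gene Plac1 (-3.27) and the X-linked homeobox gene Esx1 (-2.29), and 1 was higher, Plac8 (1.54), while Cdx2 stood at 0.49 and Gata2 at 0.13.

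Lineage markers outside the mesenchyme held both dim and bright genes, and of all genes 45.4% of the dimmer and 10.9% of the brighter were lower. For the primed and formative epiblast, of 23 members compared, 3 were higher, 4 lower and 16 within 2-fold (median -0.35), 10 of the 23 being dim, with Dnmt3b at 0.19, Otx2 at -0.84 and Pou3f1 at 0.55. Lef1, a nuclear partner of beta-catenin, was 3.07-fold higher (other probe 1.93) and T, the gene of the mesoderm factor brachyury, at least 4.2-fold higher, being well above background in iPS-OSH alone. Cer1 was not well above background in iPS-OSH and at least 5.60-fold lower. Neural markers gave 4 higher and 7 lower of 24, with 17 dim members. These counts were 6 and 4 under spike-in scaling and 5 and 5 with loess normalization, so neither direction was settled. Hes5 (-2.12) and Pax7 (-2.02) were among the 7 lower. Mesoderm and muscle markers gave 1 higher and 8 lower of 22, with 19 dim, endothelial markers 2 and 4 of 14, with 6 dim, and adipocyte, cartilage and bone genes 5 and 9 of 23, with 14 dim. In the last of these, Sox9, the cartilage factor, read 524 in iPS-OSH, 76.2 in ESC, 83.0 in iPS-J and 2025 in MEF (6.87-fold). Mgp, a mineralization inhibitor, was 4.86-fold higher, and the lipoprotein lipase gene Lpl was lower (-1.99).

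Hox genes, which set position along the body axis and are kept silent in pluripotent cells, were higher in 21 of 39 members and lower in 3 (median 1.24, 0.51 to 2.03 over the alternatives). Of these, 28 were among the dimmer genes, of which 5.97% were higher, and 10 values were bounds. Hoxc6 read 6081 in iPS-OSH, 764 in ESC, 1040.4 in iPS-J and 15553 in MEF. Hoxc9 read 1760.3 in iPS-OSH, 164 in ESC, 260.3 in iPS-J and 4443 in MEF. For both, iPS-OSH lay between ESC and MEF, 7.96-fold and 10.8-fold above ESC, and iPS-J stayed within 2-fold of ESC. Hoxa5 (9.39-fold), Hoxc10 (7.69-fold) and Hoxb3 (at least 9.31-fold) had the same order. Hoxa4 (-1.08), Hoxd13 (-1.32) and Hoxd1 (at least 2.69-fold) were lower, each at a dim level.

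Imprinted genes are expressed from 1 parental copy, and the Dlk1-Dio3 cluster is known to be silenced in some iPS lines. In iPS-OSH its maternal transcripts were present. Meg3 read 18433 in iPS-OSH, 12463 in ESC, 5287 in iPS-J and 20540.5 in MEF. Mirg read 3653 in iPS-OSH, 2589 in ESC, 927 in iPS-J and 4516 in MEF. Both lay within 2-fold of ESC (0.56 and 0.50) and iPS-J was the dimmest of the 4. The paternal gene Dlk1 was 2.47-fold higher (other probe 1.64) and far brighter in MEF (34327), Begain was at 0.43, Dio3 at -0.80, and Rtl1 was not well above background in ESC and barely so in iPS-OSH. Of 31 other imprinted genes, 7 were higher and 6 lower (median 0.13). Peg3, a paternally expressed zinc finger gene, read 7561 in iPS-OSH, 959 in ESC, 5109 in iPS-J and 1954 in MEF. Usp29, which shares its promoter region, read 51.3 in iPS-OSH, 383 in ESC, 83.9 in iPS-J and 111 in MEF. These 2 neighbours went opposite ways, 2.98 (other probe 3.42) and -2.90, and for Peg3 iPS-OSH was the brightest array. H19, the maternally expressed non-coding RNA, read 9778 in iPS-OSH, 34356 in ESC, 22527 in iPS-J and 214090 in MEF, 3.51-fold lower in iPS-OSH with its other probes between -2.18 and -0.98. Igf2, the paternally expressed gene beside it, read 835 in iPS-OSH, 321 in ESC, 501 in iPS-J and 5883 in MEF, 2.60-fold higher. Nnat (4.94-fold), Grb10 (3.01-fold) and Ndn (2.42-fold) were higher, Magel2 (-1.12) and Mkrn3 (-1.04) lower, and Impact stood at 0.01 with its other probe at 1.89.

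Sex-linked genes are given because Xist, the RNA that coats the inactive X chromosome, marks female cells that have differentiated. Xist (probe at mm9 chrX:100656289-100656348) read 229.9 in iPS-OSH, 273 in MEF and 40.3 in iPS-J, with a signal not well above background in ESC. The signal was at least 9.13-fold higher in iPS-OSH than in ESC and within 2-fold of MEF. Its antisense gene Tsix was 2.90-fold lower (70.9 against 206). The Y-linked gene Ddx3y read 1825 in iPS-OSH, 1941 in ESC, 2479 in iPS-J and 3318 in MEF. Eif2s3y read 3631 in iPS-OSH, 4328 in ESC, 3537 in iPS-J and 3733 in MEF. These genes and Uty (0.07) were well above background on every array and within 2-fold between iPS-OSH and ESC. The Y-linked gene Zfy1 was not within 2-fold: it was dim and 4.86-fold lower (38.5 in iPS-OSH, 187 in ESC, 89.2 in iPS-J and 54.7 in MEF). Of the 10 X-inactivation and Y-linked genes compared, 1 was higher and 2 lower, and Jpx, Kdm5d and Usp9y, named after their values were seen, were not well above background on either array. The X-linked relatives Eif2s3x and Kdm5c were at 0.19 and 0.38.

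Chromatin regulators were mostly level. For Polycomb and Trithorax genes, of 32 members compared, 3 were higher, 5 lower and 24 within 2-fold (median 0.16), with 0 lower and 9 higher under spike-in scaling. Suz12, a core subunit of the Polycomb complex that methylates histones, read 7044 in iPS-OSH, 15793 in ESC, 8889.6 in iPS-J and 3890.5 in MEF. Its partner Eed read 44331 in iPS-OSH, 42465 in ESC, 53617 in iPS-J and 13537 in MEF. Suz12 was 2.24-fold lower and Eed level (0.06), while Mtf2 was at -1.21 by its brightest and 0.17 by its other probe, Ezh1 at -1.09 and the Trithorax subunit gene Ash2l at -1.35 (other probe -1.20). Ring1, a ubiquitin ligase of the other Polycomb complex, was 3.47-fold higher and Cbx8 3.05-fold. Of 21 DNA methylation genes, 4 were higher and 1 lower (median 0.06), with 8 higher and 0 lower under spike-in scaling. The maintenance genes Dnmt1 and Uhrf1 were at -0.05 and 0.06, Dnmt3l at 0.73, Tet1 at -0.48, and Dnmt3a was 2.05-fold lower, while Zfp57, which guards imprints, was 2.05-fold higher with its other probe at 1.02, and Mbd2 3.31-fold. Of 35 histone modifiers, 30 lay within 2-fold, with the remodeller subunit gene Smarcd3 higher (1.95) and Chd7 lower (-1.29). The repeat silencer genes Trim28 (0.72), Daxx (0.74) and Atrx (0.77) and 15 of 16 members of that list were within 2-fold. Of 24 histone genes, 2 were higher and 7 lower (4 lower under spike-in scaling), with the linker genes H1f2 (2.26) and H1f4 (-1.62) on opposite sides and H2ax at -1.36. Among 18 housekeeping genes, 2 were higher, B2m among them, and 0 were lower. Gapdh was at 0.17 (288256 against 256447), and Actb at 0.60 by its brightest probe and 1.71 by its other.

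Differences were also set against chromosomes, over the 15196 brighter genes measured on both arrays, with a value on all 4 and an mm9 position on an autosome or X. Chromosomes 1, 8 and 11 stood apart from the other 17. The median difference was 0.31 on chromosome 1 (834 genes), -0.21 on chromosome 8 (821 genes) and -0.25 on chromosome 11 (1188 genes), and between -0.02 and 0.13 on the rest. On chromosome 1, 65.8% of genes were above 0, on chromosome 8 35.3% and on chromosome 11 35.2%, against 49.4% to 59.2% elsewhere. The differences ran along each chromosome: in bins of 20 Mb with at least 20 genes, 9 of 9 bins of chromosome 1 were above 0 (0.21 to 0.49), and 7 of 7 bins of chromosome 8 (-0.42 to -0.10) and 7 of 7 of chromosome 11 (-0.40 to -0.04) were below. Levels centred on each gene's mean over the 4 arrays show on which array they stood apart. The median centred level of ESC was 0.13 on chromosome 8 and 0.18 on chromosome 11, against -0.15 to -0.01 on the other 17, and iPS-OSH stood there at -0.08 and -0.09, near its level elsewhere (-0.09 to 0.04). On chromosome 1 both arrays stood apart, iPS-OSH at 0.11 and ESC at -0.18. In the brightest of the 8 bins the medians were 0.31, -0.14 and -0.17. These are RNA levels only, and the 3 chromosomes were picked after the values were seen.

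**Figure D5:**
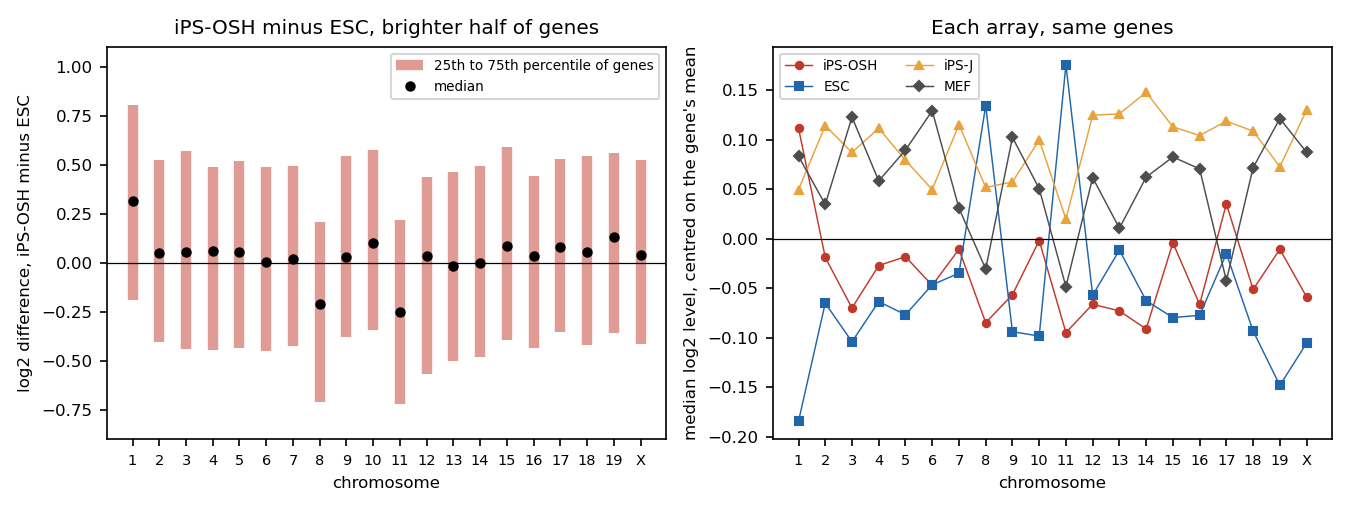
Left, log2 difference (iPS-OSH minus ESC) of the brighter genes on each chromosome, with medians as points and bars from the 25th to the 75th percentile of genes. Right, median log2 level of the same genes on each of the 4 arrays, centred on the gene's mean; chromosomes 8 and 11 stand at 0.13 and 0.18 in ESC.

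Several genes above had probes that differed in sign. For Nanog and Gc, chosen as a standard marker and as the largest measured difference on the higher side, the first 30 bases of the probes are shown, as the files give them, with mm9 positions. Nanog has a bright probe at chr6:122664590-122664649 and a dim probe at chr6:122663676-122663735. Gc, the vitamin D binding protein gene, has a probe at chr5:89846592-89846651 and another whose match spans chr5:89864029-89864558.
Nanog, bright probe: ccatgatgaaccgatgccagctggactagt
Nanog, dim probe: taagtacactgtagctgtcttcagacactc
Gc, first probe: gccttccaagaagatcaccaagataattcc
Gc, other probe: tgtttcagcactcagagtcccctgctgaag
The bright Nanog probe read 51867 in iPS-OSH, 67744 in ESC and 105 in MEF, which is -0.39, and the dim probe 243, 134 and 514, which is 0.86. The dim probe was brightest in MEF, unlike the gene's known expression in pluripotent cells. The first Gc probe read 2799.8 in iPS-OSH, 53.1 in ESC and 3807 in iPS-J, a difference of 5.72 and the largest measured on the higher side, while the other read 90.4, 143 and 77.3 (-0.66). Both iPS lines were high with the first probe, and no array was high with the other.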

How the data were processed

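Total RNA of 4 mouse cell populations was labelled with 1 dye (Cy3) and hybridised to 4 arrays, 1 array a group, per the labels. The barcodes in the file headers place the 4 arrays on 1 slide. The deposited scanner files hold spot intensity values that Agilent Feature Extraction 10.5.1.1 had corrected for background and spatial trend on the array alone, per the file headers, which place the probes on mm9. The deposited value table holds the same intensity values rounded to 3 significant digits: it matched spot number to spot number within 0.497%, with column medians of 152 (iPS-OSH), 199 (ESC), 116 (iPS-J) and 199 (MEF), on a linear scale with no centring.

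Control spots and spots marked as outliers were left out. The log2 processed signal minus the 75th percentile of its array was averaged over spots of a probe, and a gene was read by its brightest probe over all arrays. Names were updated through RefSeq accessions for 26425 probes, symbols for 3988 and synonyms for 826, and kept as deposited for 24442. A gene well above background on 1 array only was given as a bound, the bright signal over the higher of the dim probe's own and the lowest signal well above background. Spots behind a value are few (mostly 1 a probe), so precision is limited by the number of arrays, and no error between cultures can be given.

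The named genes were the 12 largest measured differences and 5 largest bounds in each direction among common symbols, up to 6 members in each direction and the 2 smallest of each of 48 lists, a few standard genes, and members of 4 short lists, with exceptions marked; some genes are not reported here. The cell types, members and lists were chosen with earlier results of these data known. Alternatives were normexp background correction, quantile and loess normalization (limma 3.58.1, R 4.3.3), other percentiles, spike-in scaling, filters, probe rules, deposited names, the deposited table and a 4-fold threshold. Loess and the brighter genes alone were added after the values were seen. The counting was done in Python 3.11.15 (pandas 2.3.3) and tested on simulated data. Promoter sequences are RefSeq's (GRCm38.p6), and no coordinates were converted between builds.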

Additional observations from a re-analysis of the deposited data

How the results depend on the processing

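With 1 array a group no replicate could be left out. No paired analysis was possible because each group held 1 array. The counts of 2636 higher and 8649 lower genes, the higher share of 23.4% and the median of -0.30 varied with scaling, normalization and the dim genes counted. Quantile normalization gave 4128 higher and 4836 lower (46.1% higher, median -0.10), spike-in scaling (8 probes) 5149 and 4961 (50.9%, median 0.12), loess 4220 and 4272 (49.7%, median -0.074) and the brighter genes alone 1719 and 1676 (50.6%, median 0.021). Calling a probe detected only when brighter than 95% of ERCC control spots gave 4299 lower (30.2%, median -0.0095), normexp 5697 lower (26.8%), and the 4-fold threshold 775 and 1768 (30.5%). The share was 16.9% with the percentile over detected probes, 24.6% for genes detected on both arrays, 24.3% with no filter and with the deposited table, and 22.6% with the median over probes. Loess kept 95.1% of the higher and 48% of the lower genes. Of 48 list medians under 12 alternatives, 448 of 576 values differed from the reported median by less than 0.18, and 128 by more. That limit is the SD from repeated spots within an array alone. Of the medians of at least 2-fold, 0 turned sign. Of 4627 values of 391 named genes, 3 turned the sign of a 2-fold difference: Hhat (0.0054) and Itgam (-1.48) with the median over probes, and Nlrc5 (1.08) with the probe brightest on the 2 arrays compared. The cause was not tested. Signals near background, spot flags and bounds limit the dim genes.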
